A study of Mus musculus with 10 samples.

Results

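The brightest probes of the LNC series were examined on arrays that measured RNA carried by vesicles from mouse brain. The probes were chosen by their measured level: a probe of the ASMM10LNC series was kept when its lowest value over all 10 arrays of the authors' deposited table was at least 12 (log2). Of 27812 LNC-series probes, 820 met this threshold, 2.95% of the series, out of 60823 non-control probes on the array. They are called the bright LNC probes below. Their brightness is signal and not a measured amount of RNA, because probes bind their targets with different strength.

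Both groups were adult male C57BL/6J mice on the same schedule of 8 h per day on 5 days per week over 4 weeks, and whole brain was collected directly after the last day. CIE mice inhaled ethanol vapor (chronic intermittent ethanol, a model of alcohol dependence) and Control mice breathed room air. Each group had 5 arrays, named here by group and by the number in the sample title, which runs from 1 to 10 across both groups. Vesicles from whole brain can come from any of its cells, and the labels do not state how many animals gave one sample. Every p-value below therefore covers only the spread between these 5 and 5 samples, part of which may be technical.

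Extracellular vesicles are membrane-bound particles that cells release, and they carry proteins, mRNA and non-coding RNA from the cell of origin. Long non-coding RNAs (lncRNAs) are transcripts that do not encode a protein, and many act on chromatin, on transcription or on the stability of other RNAs. Ethanol is known to change the expression of many genes in brain, and vesicles are studied as a route by which such RNA could reach other cells.

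None of the 820 probes carries a public transcript identifier, against 46 probes elsewhere on the array that do, so no gene symbol, position or sequence is given for them. Each was represented by 1 spot. All 820 were well above background on every array where their spot carried no outlier flag, and no spot was saturated. The brightest spot of an array reached between 22.6% and 36.4% of the saturation value. The vendor's series prefix is the sole sign of their class in the files, and it was not tested here that they report lncRNA. Of 30 marker genes listed for brain and other cell types, 4 had a named probe: Chgb and Gabrg1 for neurons, Mbp for myelin and Apoe for astrocytes. All 4 were well above background on 10 arrays, with Mbp, myelin basic protein, between 7.01 and 8.19 log2 units above the array's 75th percentile. With so few named markers, the cell types behind the vesicles could not be checked further.

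Arrays differed in overall signal. Between 61.6% and 77.2% of all non-control probes cleared background on each array, and the 75th percentile of intensity ranged from 69.7 on CIE 8 to 192 on Control 9. Control 7 and CIE 8 stood apart by the control probes for human genes. Human-GAPDH_5 was at 9.57 and 10.45 (log2, deposited table) against at most 7.11 on the other arrays. Human-GAPDH_3, at 12.75 and 13.72 against at most 11.88, Human-PGK1_3 and Human-PGK1_5 were also highest there. Of the mouse control probes, Mouse-GAPDH_5 and Mouse-PGK1_3 were lowest on these arrays, and Mouse-GAPDH_3 and Mouse-PGK1_5 were not. The cause was not tested. The scan date in the file headers gave 2 sets of arrays, called slides here. Whether each set was 1 physical slide was not checked. Slide 1 held 5 Control and 3 CIE arrays, and slide 2 held CIE 8 and CIE 10 alone. Unless the deposited table is named, levels below are log2 scanner intensities minus the 75th percentile of the same array.

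The bright LNC probes held most of the signal of their series. Their share of summed LNC-series intensity was 80.5% on Control 1, 79.1% on Control 4, 80.2% on Control 6, 83.1% on Control 7 and 75.9% on Control 9. It was 81.9% on CIE 2, 81.2% on CIE 3, 81.3% on CIE 5, 87.3% on CIE 8 and 80.4% on CIE 10. Control 9 was lowest and CIE 8 highest, and the groups overlapped. The mean was 82.4% ± 2.78 (SD, n = 5) in CIE and 79.8% ± 2.62 (SD, n = 5) in Control, a difference of 2.67 percentage points. That difference was about as large as the SD within each group, below that of CIE and above that of Control. Taken by consecutive sample numbers (1 with 2, 3 with 4 and so on, a Control and a CIE array each), the CIE array had the higher share in 5 of 5 pairs, by 1.101 to 4.58 points. The labels do not state that these numbers pair the samples. The 75th percentile of intensity was lower on the CIE array in the same 5 pairs, and its part in the difference was not tested. In the authors' deposited table, where every column has the same maximum of 17.66 and the same median of 4.60, the share lay between 79.5% and 81.9%, and the difference was -0.36 points, with CIE higher in 2 of the 5 pairs. Within slide 1 the difference was 1.70 points. Of all non-control signal on an array, including the other series, the 820 probes held between 34.8% and 38.5%.

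The AP series, whose transcript class is not stated in the files, gave a like picture under the same threshold. It had 719 such probes of 22359 (3.22%), here called bright AP probes, and they held between 78.7% and 88.1% of AP-series signal. Their share was 83.8% ± 2.53 (SD, n = 5) in CIE and 82.0% ± 2.08 (SD, n = 5) in Control. Control 9 was again lowest and CIE 8 again highest. By consecutive numbers the CIE array was higher in 4 of 5 pairs, with differences from -1.01 to 4.16 points. In the deposited table the difference between the groups was -1.08 points. In the other series the threshold was met by 177 of 7912 P probes (2.24%), 7 of 752 UP probes (0.931%) and 15 of 1731 lincRNA probes (0.867%).

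**Figure D1:**
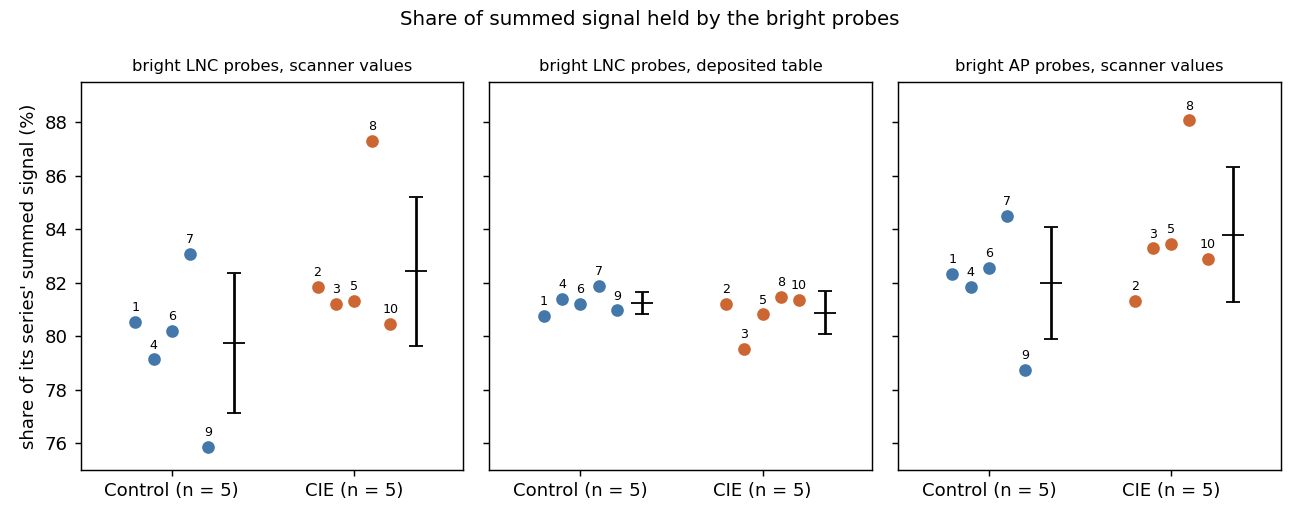
Share of summed signal (%) held by the bright probes, 1 point per array with its sample number, with the mean and SD of 5 arrays beside it. Left, bright LNC probes in scanner intensities, where CIE 8 is at 87.3% and Control 9 at 75.9%; middle, the same probes in the deposited table, between 79.5% and 81.9%; right, bright AP probes in scanner intensities, between 78.7% and 88.1%. The vertical axis starts above 0.

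Within the set, signal was spread over many probes. In sums that kept flagged spots, the brightest single probe held 0.575% of LNC-series signal on average over the 10 arrays, the 10 brightest 4.89% of it, the 50 brightest 18.6% and the 100 brightest 29.3%. It took 241 probes to hold 50% of the LNC signal, where 202 bright AP probes held 50% of the AP signal. The AP curve lay above the LNC curve at 10, 50, 100, 200 and 400 probes, with 49.8% against 44.9% at 200 probes.

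**Figure D2:**
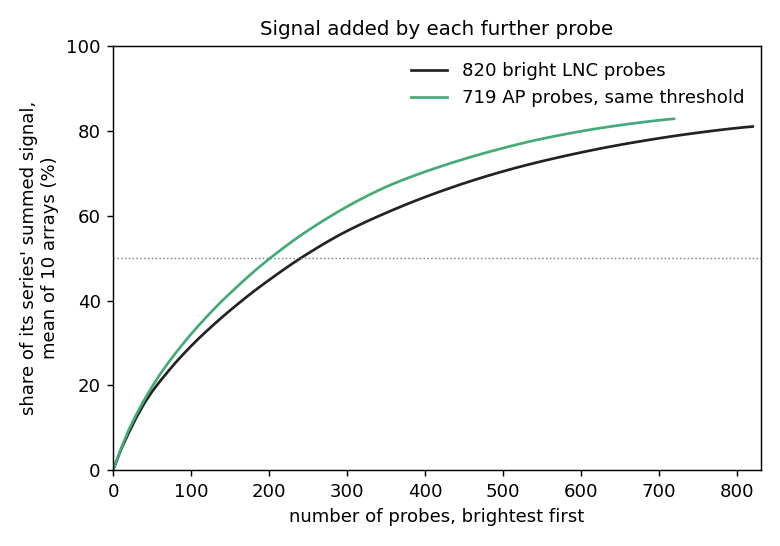
Mean share over 10 arrays (%) of a series' summed signal against the number of probes counted from the brightest, for the 820 bright LNC probes and the 719 bright AP probes. The dotted line marks 50%, reached with 241 LNC and 202 AP probes.

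The 10 probes with the highest mean in the deposited table were ASMM10LNC1A115426906V4, ASMM10LNC1A109729004V4, ASMM10LNC1A101553603V4, ASMM10LNC1A102390067V4, ASMM10LNC1A100111306V4, ASMM10LNC1A100002477V4, ASMM10LNC1A100113889V4, ASMM10LNC1A116057102V4, ASMM10LNC1A101713178V4 and ASMM10LNC1A100031165V4. Their deposited values lay between 17.09 and 17.66. The first of them sat at 17.66, the maximum of the table, on each of the 10 arrays. In scanner values the same probe was at 10.87 on Control 1, 10.64 on Control 4, 11.05 on Control 6, 11.09 on Control 7 and 10.07 on Control 9. It was at 10.91 on CIE 2, 11.14 on CIE 3, 11.22 on CIE 5, 12.05 on CIE 8 and 10.96 on CIE 10. The groups overlapped, with CIE 8 above and Control 9 below the other 8 arrays. Inside consecutive numbers the CIE array was the higher one in 5 of 5 pairs, by 0.04 to 0.96.

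That order at the extremes was common to the 10 brightest probes: 10 of 10 were highest on CIE 8, between 11.56 and 12.05, and 10 of 10 were lowest on Control 9, between 9.72 and 10.07. All 10 lay higher in CIE by 0.43 to 0.55 log2 units with standard errors between 0.258 and 0.284, and none passed the test (limma adjusted p = 0.989 for each). Under quantile normalization, which gives every array the same distribution, their differences lay between -0.08 and 0.03. The 3 brightest AP probes, ASMM10AP1B100030545V4, ASMM10AP1B120200513V4 and ASMM10AP1B116641027V4, were likewise at 11.98, 11.98 and 11.76 on CIE 8, and at 10.06, 9.85 and 9.87 on Control 9.

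The ranking at the top was largely shared between arrays. Of the 10 brightest probes on each array, 6 were among the 10 brightest on all 10 arrays, and 19 probes were among them on any array. For the 50 brightest, 30 were shared by all arrays out of 80 that appeared on any. Spearman's rho between 2 arrays over the 820 probes ranged from 0.744 (CIE 2 with CIE 10) to 0.985 (CIE 5 with Control 6). The 5 pairs of consecutive sample numbers, each a Control and a CIE array, had a rho of at least 0.924. All 5 lie within arrays 1 to 4 or within arrays 5 to 10, a division made after seeing the data. The median rho was 0.942 within arrays 1 to 4, 0.912 within arrays 5 to 10 and 0.796 between these sets. These correlations are across probes of 1 array design, which are not independent replicates.

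None of the bright LNC probes passed when CIE was compared with Control. With limma and Benjamini-Hochberg adjustment over all 43069 probes tested, 0 of the 820 had an adjusted p under 0.05, where 0.0% of all tested probes did, and the lowest adjusted p among the 820 was 0.989. At an unadjusted limma p under 0.05 there were 16 of 820 (1.95%), against 2.14% of all tested probes, 2.23% of the 18908 remaining LNC-series probes that were tested and 0.974% of the bright AP probes. In this fit the bright LNC probes lay near the background of the array. Of the 16, 1 lay higher in CIE and 15 lay lower. Of all tested probes, 0.467% had an unadjusted limma p under 0.05 and lay higher, and 1.67% had one and lay lower. The count and its distance from the background moved with single arrays. It was 6 without CIE 8 (0.732%, against 1.65% of all tested probes), 7 without Control 4 (0.854% against 0.957%), 7 without Control 9 (0.854% against 0.933%) and 9 without Control 1 (1.098% against 3.03%). It was 23 without CIE 5 (2.80% against 5.45%), 32 without Control 6 (3.90% against 2.29%) and 46 without CIE 10 (5.61% against 5.44%). With slide as a block it was 11 (1.34% against 5.04%), and within slide 1 it was 20 (2.44% against 5.74%), both well below the background. With consecutive sample numbers as a block it was 154 (18.8% against 14.8%), 61 higher and 93 lower in CIE, and the lowest adjusted p among the 820 was 0.192. In each of these limma fits 0 of the 820 passed the adjusted threshold.

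The differences were centred close to 0. The median over the 820 probes was -0.03 log2 units, with 48.3% higher in CIE, beside -0.06 for the remaining LNC-series probes and -0.01 for the bright AP probes. The sign of that median turned without Control 1 (0.09) and without CIE 5 (0.06), and it was 0.00 without Control 4. Single differences ranged from -1.28 to 0.57. The median standard error was 0.281 and the median half-width of the 95% interval was 0.617 log2 units, a factor of 1.53.

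The differences depended on brightness and on the scaling of the arrays. With the 820 probes divided into 4 bins of 205 by their deposited mean, a division made after seeing the data, the median difference was -0.25 in the dimmest bin, -0.17 and -0.05 in the next ones and 0.30 in the brightest. In that order 46, 68, 88 and 194 of the 205 probes lay higher in CIE. Under quantile normalization the medians were -0.08, -0.06, -0.06 and -0.01, and in the deposited table -0.07, -0.05, -0.06 and -0.01. The difference in the brightest bin was thus close to 0 there, with 91 of the 205 probes higher in CIE in either case. The bright AP probes had medians of -0.24, -0.20, 0.03 and 0.33 from the dimmest to the brightest bin.

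Single arrays contributed unequally to this. Below the brightest bin, the largest median deviation of a probe from its own mean over 10 arrays was on Control 1. It was 0.71, 0.61 and 0.53 there from the dimmest bin up, and -0.42, -0.42 and -0.35 on CIE 5. The median difference of the dimmest bin, -0.25, was -0.15 without Control 1 and -0.16 without CIE 5. It was -0.20 without CIE 8 or without Control 9, and -0.32 without Control 6 or without Control 7. In the brightest bin the median deviation of a probe from its own mean over 10 arrays was 0.67 on CIE 8 and -0.57 on Control 9. It lay between -0.20 and 0.16 on the other 8 arrays. Without CIE 8 the median difference of that bin was 0.17, without Control 9 it was 0.18, and without Control 7 and CIE 8 it was 0.22. The spread of the 820 values within an array moved the same way, from an SD of 0.94 log2 units on Control 9 to 1.67 on CIE 8, with 1.37 ± 0.18 (SD, n = 5) in CIE and 1.15 ± 0.15 (SD, n = 5) in Control, and the CIE array had the larger SD in 5 of 5 pairs of consecutive numbers. For the bright AP probes this SD was 1.42 ± 0.20 (SD, n = 5) in CIE and 1.19 ± 0.17 (SD, n = 5) in Control. CIE 8 also had the lowest and Control 9 the highest 75th percentile of intensity, as given above. The part of overall signal in this pattern was not tested.

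**Figure D3:**
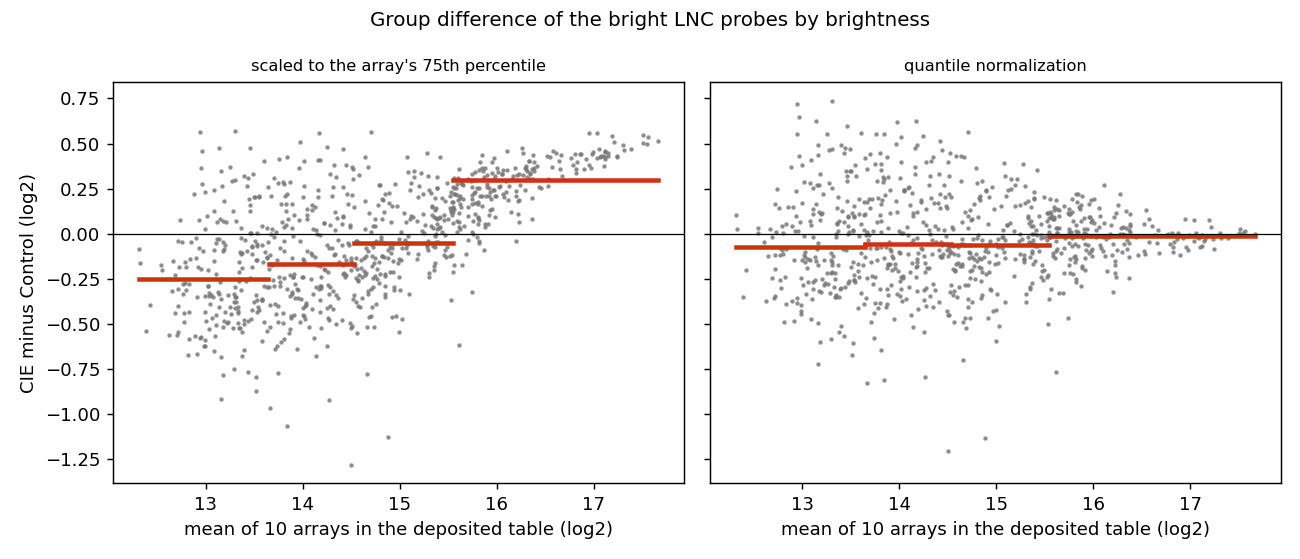
CIE minus Control (log2) of each of the 820 bright LNC probes against its mean over 10 arrays in the deposited table (log2), with red lines at the median of each bin. Left, values scaled to the 75th percentile, with medians from -0.25 to 0.30; right, after quantile normalization, with medians from -0.08 to -0.01.

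**Figure D4:**
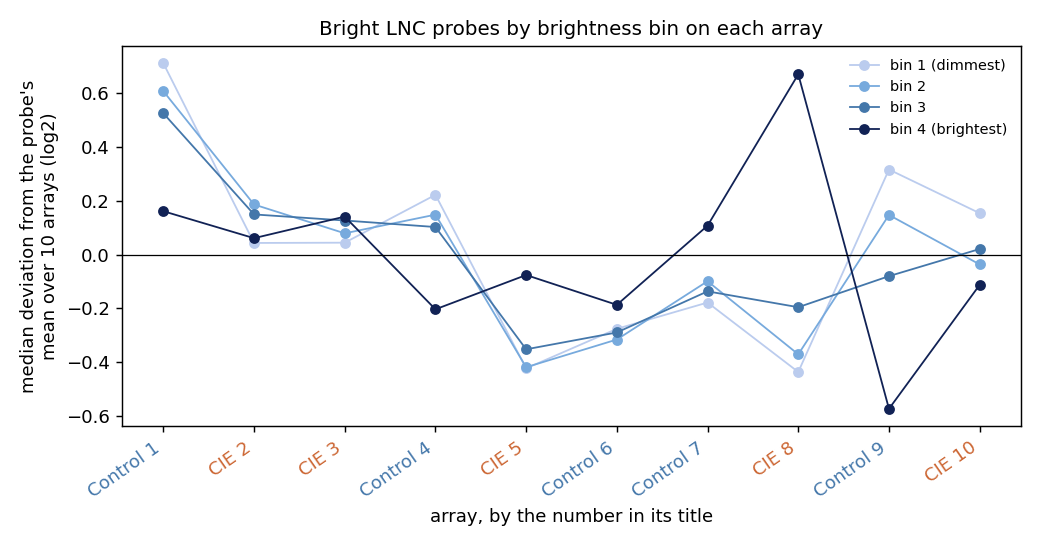
Median deviation (log2) of the probes of each brightness bin from their own mean over 10 arrays, by array, with Control labels in blue and CIE labels in orange. The brightest bin reaches 0.67 on CIE 8 and -0.57 on Control 9, where the dimmest bin is at -0.44 and 0.32.

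The 4 probes with the smallest p among those lower in CIE did not pass, with a limma adjusted p of 0.989 for each. ASMM10LNC1A100104559V4 was at 7.81 on Control 1, 7.87 on Control 4, 7.85 on Control 7 and 7.86 on Control 9, with its Control 6 spot left out for an outlier flag. On the CIE arrays 2, 3, 5, 8 and 10 it was at 6.25, 6.31, 7.01, 6.90 and 7.46. The 4 Control values were nearly equal and lay above all 5 CIE values. The log2 difference was -1.06 (SE 0.273, 95% interval -1.67 to -0.46), at an unadjusted p of 0.0028 in limma's fit across all tested probes. The flagged Control 6 spot read 6.19, below every CIE value, and with it kept the groups overlapped and the difference was -0.73. In the deposited table, which holds a value of 13.08 for that array, the difference was -0.55.

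ASMM10LNC1A100074159V4 was at 7.73, 7.54, 6.57, 7.32 and 7.12 on Control 1, 4, 6, 7 and 9, and at 6.65, 6.50, 6.33, 6.27 and 6.55 on CIE 2, 3, 5, 8 and 10. Control 6 alone lay within the CIE range, and the log2 difference was -0.79 (SE 0.236.) ASMM10LNC1A108737788V4 was at 7.35, 6.89, 6.77, 6.64 and 7.04 on those Control arrays and at 5.53, 6.26, 6.21, 5.15 and 6.97 on those CIE arrays. CIE 10 alone overlapped with Control, and the difference was -0.92 (SE 0.324.) ASMM10LNC1A100058624V4 was at 8.46, 8.03, 7.80, 7.97 and 7.93 in Control and at 6.88, 7.32, 6.95, 6.18 and 8.22 in CIE, again with CIE 10 alone inside the Control range. Its difference was -0.92 (SE 0.334.) Each of these 3 differences kept its sign in all 21 alternative fits, and the adjusted p stayed above the threshold there. The probes were chosen by p from the same values, so the kept sign adds no independent support.

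Among probes higher in CIE, those with the smallest p did not pass either, each with a limma adjusted p of 0.989. ASMM10LNC1A100064121V4 was at 10.31, 10.01, 10.27, 10.32 and 9.67 on Control 1, 4, 6, 7 and 9, and at 10.34, 10.50, 10.52, 11.46 and 10.53 on CIE 2, 3, 5, 8 and 10. The groups did not overlap, although CIE 2 and Control 7 were almost equal. The difference was 0.56 (SE 0.251), and it was 0.36 without CIE 8, 0.34 when slide was a block and 0.08 under quantile normalization. ASMM10LNC1A101630171V4, at 11.39 on CIE 8 and 9.43 on Control 9 with the other arrays between 9.96 and 10.58, had a difference of 0.56 (SE 0.271.) It was 0.36 without CIE 8 and 0.08 under quantile normalization.

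The other two differences did not shrink in this way under quantile normalization. ASMM10LNC1A101901565V4 was at 5.84, 5.90, 6.31, 6.02 and 6.21 in Control and at 6.19, 6.28, 6.41, 6.55 and 7.14 in CIE. The groups overlapped, with CIE 10 highest. Its difference was 0.46 (SE 0.222), 0.65 under quantile normalization, 0.30 without CIE 10 and 0.24 when slide was a block. ASMM10LNC1A100632608V4 was at 5.97, 5.70, 6.21, 6.26 and 5.85 in Control and at 6.90, 6.22, 6.34, 7.35 and 5.98 in CIE. CIE 3 and CIE 10 lay within the Control range and CIE 8 was highest. Its difference was 0.56 (SE 0.275), 0.72 under quantile normalization and 0.36 without CIE 8.

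Groups that did not overlap were rare. They were found for 1 bright LNC probe that lay higher in CIE, where the array as a whole gave 0.111%, and for 1 that lay lower, where it gave 0.211%. These were ASMM10LNC1A100064121V4 and ASMM10LNC1A100104559V4, and the second rests on the omission of the Control 6 spot.

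In scaled scanner values the spread of the bright LNC probes between arrays was close to that of the other sets. The median SD of a probe over 10 arrays was 0.453 log2 units, with quartiles of 0.344 and 0.586, beside 0.470 for the remaining LNC-series probes tested and 0.420 for the bright AP probes. In the deposited table the medians were 0.339, 0.455 and 0.303, so both bright sets varied less there than the remaining LNC-series probes. Within a group the median SD of the bright LNC probes was 0.480 in CIE and 0.394 in Control. The other sets also had the larger value in CIE, with 0.524 and 0.379 for the remaining LNC-series probes. For the bright AP probes these were 0.438 and 0.359. The threshold on the lowest value leaves out probes that dip on 1 array, so these spreads are a description of the chosen set.

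The most even probes were ASMM10LNC1A107126398V4, ASMM10LNC1A100133143V4 and ASMM10LNC1A108628854V4, with SDs of 0.156, 0.157 and 0.163 over 10 arrays. ASMM10LNC1A107126398V4 was at 9.27, 8.79, 8.78, 8.84 and 8.89 on Control 1, 4, 6, 7 and 9, and at 8.89, 9.04, 8.85, 9.03 and 9.07 on CIE 2, 3, 5, 8 and 10. Control 1 was highest and the groups overlapped. Its difference was 0.06 with a 95% interval from -0.32 to 0.45, those of the other 2 were 0.10 and 0.04, and none passed (limma adjusted p = 0.99, 0.989 and 0.991).

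The most variable probes were ASMM10LNC1A100100803V4, ASMM10LNC1A100010830V4 and ASMM10LNC1A105373779V4, with SDs of 1.86, 1.82 and 1.71. ASMM10LNC1A100100803V4 was at 9.48 on Control 1, 9.58 on CIE 2, 9.69 on CIE 3 and 8.35 on Control 4. On CIE 5, Control 6, Control 7, CIE 8, Control 9 and CIE 10 it was at 5.68, 5.83, 5.53, 5.38, 6.11 and 6.05. The arrays numbered 1 to 4 were high and those numbered 5 to 10 low, whatever the exposure. The CIE minus Control difference was 0.22 (SE 1.06) (limma adjusted p = 0.991). The other 2 followed the same course, with differences of 0.38 and 0.33 and standard errors of 1.03 and 0.969.

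This pattern by sample number was looked for in all probes after it had been seen in these values, so it is a description. The arrays numbered 1 to 4 are 2 Control and 2 CIE arrays, the others 3 of each, and what the numbers stand for is not stated in the labels. On all of arrays 1 to 4, 29 bright LNC probes were at least 1 log2 unit above their highest value on arrays 5 to 10 (3.54%), against 1.26% of all tested probes, 1.14% of the remaining LNC-series probes and 1.25% of the bright AP probes. The reverse was seen for 0 of the 820, against 0.0836% of all tested probes. The median level of the 29 was 9.72 on Control 1, 9.78 on CIE 2, 10.07 on CIE 3 and 8.98 on Control 4, and 7.29, 7.23, 6.81, 6.94, 6.94 and 7.16 on arrays 5 to 10 in order. Control 4 was the lowest of the first 4 arrays for 29 of the 29.

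Together the 29 probes held between 3.89% and 6.84% of LNC-series signal on arrays 1 to 4, and between 1.00% and 1.61% on the other arrays. The median Pearson correlation between 2 of them over the 10 arrays was 0.992 and the lowest 0.824, beside a median of 0.210 over all pairs of the 820. These points share the arrays, and the 29 were chosen for this course. Between CIE and Control, 0 of the 29 had an unadjusted limma p under 0.05, against 2.14% of all tested probes. The choice of the 29 placed a wide split inside each group, so this fit could hardly have given such a p. Under quantile normalization, in the deposited table, and with normexp followed by quantile normalization, 19 probes met the same condition, and 17 of the 19 in the deposited table were among the 29.

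**Figure D5:**
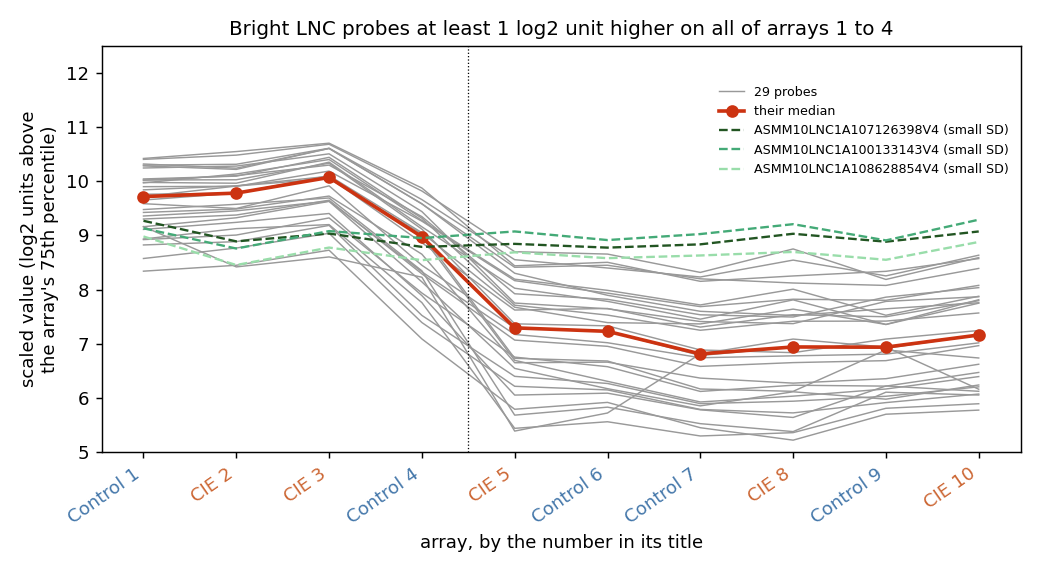
Scaled level (log2 units above the array's 75th percentile) on each array, in the order of the sample number, of the 29 bright LNC probes that were at least 1 log2 unit higher on all of arrays 1 to 4 (grey), their median (red) and the 3 most even probes (dashed). The median runs from 10.07 on CIE 3 to 6.81 on Control 7, while the dashed lines stay between 8.45 and 9.29.

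The threshold passed through a continuous range of values. Just inside it were ASMM10LNC1A113531271V4, ASMM10LNC1A100026609V4 and ASMM10LNC1A100682876V4, each with a lowest deposited value of 12.01. Just outside were ASMM10LNC1A100021254V4, ASMM10LNC1A106626789V4 and ASMM10LNC1A100084394V4, with lowest values of 11.9996, 11.9976 and 11.9944. ASMM10LNC1A100021254V4, lowest on Control 9, was at 15.87, 16.03 and 16.10 on Control 1, CIE 2 and CIE 3 in the same table and at no more than 12.84 on arrays 5 to 10. In all, 322 LNC-series probes had a deposited mean of at least 12 but fell below 12 on some array. Their lowest value was on CIE 2 for 87 of them, on Control 1 for 60 and on CIE 8 for 54.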

How the data were processed

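RNA from brain vesicles was hybridised to 10 single-colour Agilent arrays. The authors deposited scanner files with a linear intensity per spot, which per the file headers Feature Extraction 11.0.1.1 had background-subtracted, and flags for outliers and for signal well above background. They also deposited a table whose columns ranked probes as the scanner file of the same array did (rank correlation 0.990 to 0.999). The authors' deposited values were taken as log2 because, over the upper 50% of probes, they rose by 0.998 to 1.00 per unit of quantile-normalized log2 intensity. How the authors normalized these deposited log2 values is not stated in the sources used here; the columns share 1 median and 1 maximum, as after quantile normalization.

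The probes were selected on the deposited table. All else, unless stated, used log2 processed intensity minus the array's 75th percentile of non-control probes, without flagged spots (27 to 150 per array), of which 19 values belonged to the 820 probes. Spots of a probe were averaged. Shares used linear intensity, and the cumulative shares kept flagged spots. A probe was tested if 5 or more of the 10 arrays had it well above background (43069 probes), with limma 3.58.1 (R 4.3.3) and Benjamini-Hochberg adjustment at 0.05. The script was tested on simulated data. The number of arrays limits the precision. Slide (assigned by scan date), consecutive sample numbers, each array in turn, scaling, background and filter were varied in 21 alternative fits. Normexp (offset 50) and the share before background subtraction used the median signal of a spot, the signal column read from the files.

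The named probes are the 10 brightest, the 4 per direction with the smallest p, the 3 each with the largest and smallest SD, the 3 on each side of the threshold and the 3 brightest AP probes. The probes, the lists and the tests were chosen with earlier results of these data known.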

Additional observations from a re-analysis of the deposited data

Results flagged for a closer look

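In 9 of 66 groups of 5 values (array measures and named probes, each in each exposure group), 1 array lay far from the other 4. A rate of 1 in 20 groups would give 3.3. Many of the named probes were chosen by their spread, p or brightness in these data, so that rate does not apply to them. The values of the brightest probes rise and fall together on an array, so these groups are not independent. On CIE 8 the share of LNC-series signal held by the bright LNC probes was 87.3%, with the next CIE array at 81.9%. On the same array ASMM10LNC1A115426906V4 was at 12.05 (next highest 11.22), ASMM10LNC1A109729004V4 at 11.90 (11.13), ASMM10LNC1A102390067V4 at 11.92 (11.10), ASMM10LNC1A101713178V4 at 11.60 (10.76), ASMM10LNC1A100031165V4 at 11.56 (10.75) and ASMM10LNC1A100064121V4 at 11.46 (10.53). On Control 1, ASMM10LNC1A107126398V4 was at 9.27, with the next Control array at 8.89, and ASMM10LNC1A108628854V4 was at 8.98, with the next at 8.63.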

How the results depend on the processing

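No bright LNC probe passed the adjusted threshold in limma in any of the 21 alternative fits, and the median difference over the 820 probes lay between -0.09 and 0.09. The count at an unadjusted limma p under 0.05 was 36 with normexp and quantile normalization (4.39%, against 2.54% of all tested probes), 7 without Control 7 and CIE 8 (0.854% against 1.39%), and 25 with arrays 1 to 4 and 5 to 10 as a block (3.05% against 3.48%). With consecutive sample numbers as a block it was 154 (18.8%, against 14.8% of all tested probes). It was 11 with slide as a block (1.34% against 5.04%) and 20 within slide 1 (2.44% against 5.74%). Leaving out 1 array gave between 6 and 46. The fit on consecutive numbers assumes a pairing that the labels do not state.

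The 205 brightest probes had a median difference of 0.30, which was -0.007446 in the deposited table, -0.01041 under quantile normalization and -0.01354 with normexp and quantile normalization. The difference in the share of LNC signal, 2.67 points, was -0.36 in the deposited table. The mean share of 81.1% was 78.0% with normexp. The 29 probes higher on arrays 1 to 4 were 19 under quantile normalization, in the deposited table and with normexp followed by quantile normalization. The matching share of all tested probes is not given for these scalings. The alternatives and pairs for the share difference, the brightness bins and the pattern by sample number, and the block on arrays 1 to 4, were chosen after seeing the data. The causes of these shifts were not tested.

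A threshold of 11 gave 1159 probes, one of 13 gave 582, and a mean of at least 12 gave 1142. All 8 probes named for their group difference kept its sign in each alternative fit that held them. They were chosen by p from these same values, so a kept sign adds no independent support. The differences of ASMM10LNC1A100064121V4 and ASMM10LNC1A101630171V4 fell to as little as 0.08 each. Slide 2 has no Control array, so fits with a slide block use the difference within slide 1.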
